A study of Mus musculus with 8 samples.

Results

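The 10 genes described here are a fixed list of cardiomyocyte genes, out of 21859 genes counted in each aorta: Myh6, Myl7, Myl4, Nppa, Sln, Tnni3, Tnnt2, Actc1, Mybpc3 and Myl2. They were put on the list with the difference between the genotypes already known from these same libraries, so their genotype differences are given below as a description and carry no test. Aortas of 4 ApoE-/- mice were compared with aortas of 4 WT mice by sequencing total RNA, 1 library per mouse. All 8 were male mice of the C57BL/6 background, 40 weeks old and kept on a normal chow diet. The ApoE-/- mice lack apolipoprotein E in every cell from the germline on, and the WT mice carried no engineered allele. RNA came from the total aorta, so every value is an average over the cells of the wall and whatever was left attached to it. In such bulk samples, fewer cells of a type and less RNA per cell cannot be told apart.

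The sarcomere is the contractile unit of striated muscle, in which thick filaments of myosin pull on thin filaments of actin whose access is gated by troponin. The atria and ventricles of the heart use partly different versions of the same parts: the regulatory light chain is Myl7 in atria and Myl2 in ventricles, and the essential light chain is Myl4 in atria and Myl3 in ventricles. Atrial muscle also makes the hormone atrial natriuretic peptide from Nppa and the calcium pump regulator sarcolipin from Sln. Cardiomyocytes are known to extend from the heart along the walls of the great thoracic veins, while the wall of the aorta is built from smooth muscle.

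Each library held 18375898 to 23940156 read pairs on genes, and the 3 counts taken here as the limit of detection corresponded to 0.122 to 0.166 CPM (counts scaled to a common library size with TMM factors). Apoe itself was at 536 to 857 CPM in WT aortas and 14.6 to 36.3 CPM in the knockouts, as the labels have it. The smooth muscle actin Acta2 was at 3227 to 6330 CPM and 1415 to 6116 CPM, respectively, so the defining marker of the aortic wall was present in all 8 libraries. ApoE-/- replicate 1 stood apart: its correlation across genes with the other ApoE-/- libraries (log2 CPM) was 0.849 to 0.903, against 0.951 to 0.971 among those other libraries and 0.979 to 0.989 among the WT libraries. For the 9 tested members and some other genes, the log2 fold change without it is given too. Other fold changes are from all 8 libraries only. Some of these changed sign without it, such as Mpped2 (0.19 to −0.14) and Hspb7 (−0.04 to 0.25). The genotypes also differed in how the reads were assigned: pairs on genes numbered 23240995 to 23940156 in ApoE-/- and 18375898 to 21664598 in WT libraries, and pairs without a gene made up 64.4% to 67.7% and 69.8% to 72.1%. Neither range overlapped between the genotypes, and the part of this in the differences below was not tested.

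Summed over the 10 genes, the level was 135, 24.3, 48.0 and 37.4 CPM in ApoE-/- replicates 1 to 4 and 544, 233, 298 and 324 CPM in WT replicates 1 to 4. Every ApoE-/- aorta therefore lay below every WT aorta, and the highest library of each genotype was its replicate 1. The means were 350 ± 135 CPM in WT and 61.2 ± 50.2 CPM in ApoE-/- aortas (SD, n = 4 each), and without ApoE-/- replicate 1 the mean of that genotype was 36.5 CPM. The 10 genes were a small part of each library, 0.00238% to 0.0139% of the pairs on genes in ApoE-/- mice and 0.0247% to 0.0547% in WT mice.

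**Figure D1:**
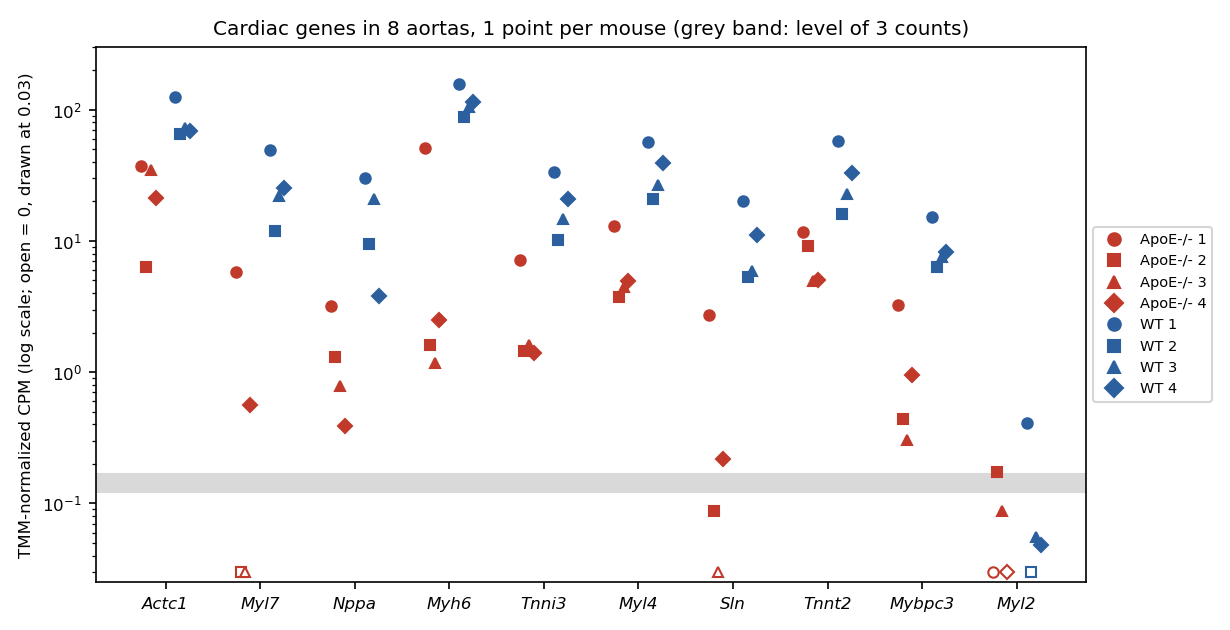
TMM-normalized CPM (log axis) of each of the 10 cardiac genes in the 4 ApoE-/- (red) and 4 WT (blue) aortas, 1 point per mouse, with the marker shape giving the replicate and the grey band the level of 3 counts (0.122 to 0.166 CPM). For every gene but Myl2 the 4 red points lie below the 4 blue ones, and ApoE-/- replicate 1 is the highest red point.

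Of the 10 genes, 9 passed the low-count filter and Myl2 did not, and in all 9 the 4 ApoE-/- values lay below the 4 WT values, a pattern shown by 3.3% of the 15077 genes tested. The quasi-likelihood test of edgeR called 0 of the 9 at a Benjamini-Hochberg adjusted p under 0.05, while all 9 were lower at an unadjusted p under 0.05 (4.17% of all tested genes were). By the adjusted p, 0.0929% of all tested genes were called lower. DESeq2 called 7 of the 9, all but Myh6 and Myl7, against 1.75% of the genes with an adjusted p called lower, and limma-voom called 0. Without ApoE-/- replicate 1, edgeR called 8 of the 9, all but Actc1, against 1.16% of all genes called lower. Because the genes were chosen on this very contrast, nothing is read from these counts.

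The thick filament is described first. Myh6 encodes the alpha myosin heavy chain, the main motor of the adult mouse heart (GRCm38 chr14:54941921-54966927, minus strand). Its level was 51.2, 1.62, 1.18 and 2.52 CPM in ApoE-/- replicates 1 to 4 and 158, 88.6, 105 and 114 CPM in WT replicates 1 to 4. The ApoE-/- group thus held 1 library at 46.8% of the WT median and 3 libraries between 1.1% and 2.3% of it. The log2 fold change of ApoE-/- over WT was −3.04 (SE 1.21), and without ApoE-/- replicate 1 it was −6.03. Behind the 3 low values stood 37, 27 and 58 counts, all above the limit of detection.

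Myl7, the atrial regulatory light chain (chr11:5896637-5898782, minus strand), was at 5.84, 0, 0 and 0.564 CPM in the ApoE-/- mice, in the order of replicates, and at 48.9, 11.8, 22 and 25.1 CPM in the WT mice. Replicates 2 and 3 of ApoE-/- had no count, which at their depth allows a level of up to 0.131 CPM each, and replicate 1 had 144 counts. The log2 fold change was −4.06 (SE 1.40), or −7.12 without ApoE-/- replicate 1. Myl4, the atrial essential light chain (chr11:104550663-104595753, plus strand), did not come as near to absence. Its ApoE-/- values were 12.9, 3.71, 4.48 and 4.94 CPM and its WT values 56.6, 21, 26.8 and 39.5 CPM. The 3 lower ApoE-/- libraries kept 11.2% to 14.9% of the WT median of Myl4, and the log2 fold change was −2.46 (SE 0.48), or −3.04 without ApoE-/- replicate 1.

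Mybpc3 encodes cardiac myosin-binding protein C, which sits along the thick filament and tunes the binding of myosin heads (chr2:91118144-91136516, plus strand). It was at 3.24, 0.437, 0.305 and 0.954 CPM in ApoE-/- mice against 15.2, 6.36, 7.59 and 8.18 CPM in WT mice. As with the heavy chain, ApoE-/- replicate 1 was several times above the other ApoE-/- libraries and still below the lowest WT library. The log2 fold change was −2.91 (SE 0.73) with that library and −4.03 without it. Myl2, the ventricular regulatory light chain (chr5:122100951-122113472, plus strand), was near the limit of detection in both genotypes, with 9, 0, 1 and 1 counts in the WT mice, in the order of replicates, and 0, 4, 2 and 0 in the ApoE-/- mice. The 2 genotypes overlapped for Myl2, and the gene was too low to be tested.

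On the thin filament, Actc1 encodes cardiac alpha-actin (chr2:114047282-114053548, minus strand), an isoform close in sequence to the smooth muscle and skeletal muscle alpha-actins. It departed most from the other genes, with 37.2, 6.29, 34.6 and 21.4 CPM in ApoE-/- replicates 1 to 4 and 124, 64.7, 72.8 and 68.4 CPM in WT replicates 1 to 4. Here ApoE-/- replicate 3 was close to replicate 1, and replicate 2 alone was low, at 8.9% of the WT median. The log2 fold change was −1.73 (SE 0.51), or −1.99 without ApoE-/- replicate 1. Pairs without a unique alignment were counted apart and given to no gene. Pairs shared between near-identical actins would be among them. Acta2 was at 1415, 6116, 5387 and 4321 CPM in ApoE-/- replicates 1 to 4 and 5205, 4653, 6330 and 3227 CPM in WT replicates 1 to 4. The highest Acta2 level of the ApoE-/- mice went with the lowest Actc1 level in replicate 2, while replicate 3 was high in both, and the part of shared reads in Actc1 was not tested.

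Tnnt2 encodes cardiac troponin T, which ties the troponin complex to tropomyosin (chr1:135836354-135852260, plus strand). It was at 11.6, 9.18, 4.92 and 5.03 CPM in ApoE-/- aortas and 57.4, 16.1, 22.9 and 32.8 CPM in WT aortas. ApoE-/- replicates 1 and 2 were close to each other for this gene, at 41.6% and 32.9% of the WT median, and the log2 fold change was −2.07 (SE 0.46), or −2.34 without ApoE-/- replicate 1. Tnni3, cardiac troponin I, is the inhibitory subunit (chr7:4518305-4524229, minus strand, overlapping Dnaaf3 on the same strand). Its values were 7.10, 1.44, 1.61 and 1.39 CPM in ApoE-/- aortas and 33.5, 10.1, 14.6 and 20.7 CPM in WT aortas, with a log2 fold change of −2.77 (SE 0.66), or −3.73 without ApoE-/- replicate 1. Dnaaf3 itself was at 0.874 to 1.65 CPM in ApoE-/- mice and 0.775 to 1.44 CPM in WT mice, so its level overlapped between the genotypes.

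The members that mark atrial muscle outside the filaments behaved alike in part. Sln, whose product sarcolipin restrains the calcium pump of the sarcoplasmic reticulum (chr9:53850164-53854560, plus strand), was at 2.72, 0.0874, 0 and 0.217 CPM in ApoE-/- aortas and 19.998, 5.29, 5.87 and 11 CPM in WT aortas. Replicates 2 and 3 of ApoE-/- had 2 counts and 0 counts, both under the limit of detection. The log2 fold change was −3.78 (SE 1.24), or −6.62 without ApoE-/- replicate 1. Nppa, the gene of atrial natriuretic peptide (chr4:148000722-148002079, plus strand), was at 3.2, 1.31, 0.784 and 0.390 CPM in ApoE-/- aortas and 29.997, 9.54, 20.8 and 3.83 CPM in WT aortas. WT replicate 4 was the lowest WT library for Nppa, at 25.2% of the WT median, although it was above that median for Sln (130%), Myl4 (119%) and Myl7 (106%). The highest ApoE-/- value of Nppa, 3.2 CPM, lay just under it, and the log2 fold change was −3.49 (SE 0.82), or −4.27 without ApoE-/- replicate 1.

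**Figure D2:**
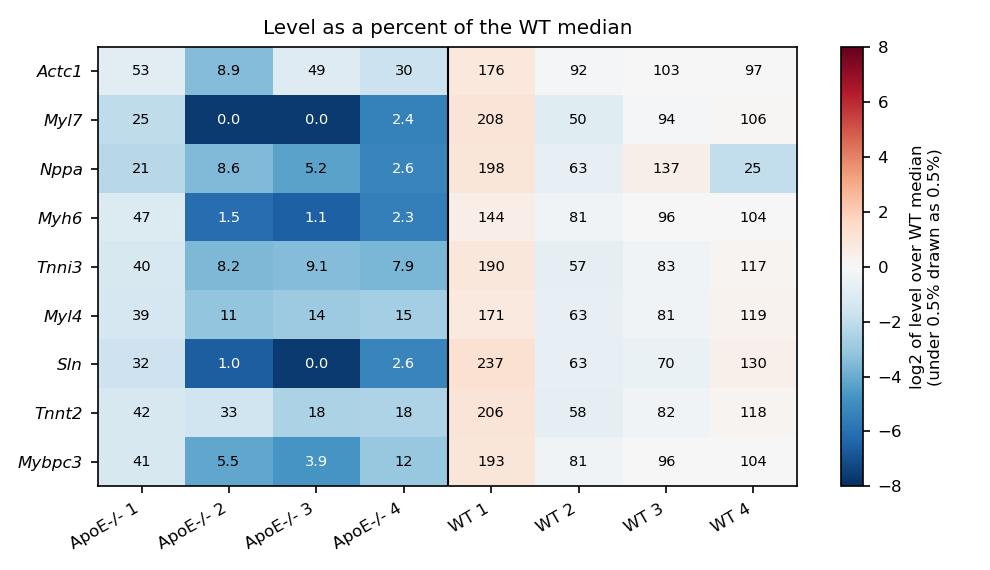
Level of the 9 tested cardiac genes in each aorta as a percent of the WT median of that gene, with genes in rows, libraries in columns and color giving the log2 of the ratio. ApoE-/- replicate 1 ranges from 21.1% (Nppa) to 52.6% (Actc1), ApoE-/- replicates 2 to 4 reach 0% for Myl7 and Sln, and WT replicate 1 is above the median for every gene (144% to 237%).

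Levels of different genes can be compared only per length, here as CPM per kilobase of merged exons. In WT mice the median was highest for Actc1 (43.6 CPM per kilobase) and Myl7 (39.9), followed by Nppa (17.5) and Myh6 (16.3), then Tnni3 (8.54), Myl4 (7.15), Sln (6.40), Tnnt2 (3.60), Mybpc3 (1.89) and Myl2 (0.0265). Neighbours in this order mostly overlapped across the 4 WT mice. Actc1 ranged from 40.0 to 76.6 and Myl7 from 20.1 to 82.9, and Nppa from 4.42 to 34.7 and Myh6 from 13.2 to 23.4, whereas Myl2 (0 to 0.212) lay clear of Mybpc3 (1.53 to 3.65). In ApoE-/- mice the order of medians changed, with Actc1 at 17.3 CPM per kilobase far above Nppa (1.21), Myl4 (1.02) and Tnnt2 (0.916), and Myl7 at 0.478.

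The list joins atrial and ventricular genes, and the balance of chamber partners was compared within each library, where the scaling between libraries plays no part. Myl7 made up 99.2%, 100%, 99.7% and 99.8% of the Myl7 and Myl2 counts in WT replicates 1 to 4, a mean of 99.7% ± 0.361 (SD, n = 4), from 2241 Myl7 counts of 2252. Per length the WT mean was 99.9%. In ApoE-/- replicate 1 all 144 counts were of Myl7 (exact 95% binomial interval 97.5% to 100%), and in replicate 4 all 13 were (75.3% to 100%). Replicates 2 and 3 had 0 Myl7 counts of 4 and of 2 (0% to 60.2% and 0% to 84.2%). With 3 counts as the limit of detection, their shares could reach 75% and 100%, so that of replicate 3 cannot be placed below the WT shares. The atrial light chain was therefore nearly the only one of the pair in WT mice. In ApoE-/- replicates 2 and 3 the pair had too few counts to compare the 4 ApoE-/- libraries. Such intervals cover counting error only.

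The second light chain pair could be read in every mouse. Myl4 made up 97.0%, 96.6%, 97.2% and 94.2% of the Myl4 and Myl3 counts in ApoE-/- replicates 1 to 4 and 96.1%, 97.8%, 98.0% and 99.0% in WT replicates 1 to 4. The atrial partner thus dominated in both genotypes, and the 2 ranges overlapped (96.2% ± 1.37 and 97.7% ± 1.22, SD, n = 4 each) on 88 to 1283 counts per library. Myh6 and Myh7, the alpha and beta heavy chains, are not a chamber pair in the adult mouse, where the alpha chain prevails throughout the heart. Myh6 made up 98.6% to 99.2% of the pair in WT mice and 98.7%, 72.5%, 90.0% and 96.7% in ApoE-/- replicates 1 to 4, where replicate 2 had 37 Myh6 and 14 Myh7 counts (exact interval 58.3% to 84.1%).

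Relative to the heavy chain that both chambers use, Myl7 was 23.7%, 11.8%, 17.3% and 18% of the Myl7 and Myh6 counts in WT replicates 1 to 4. It was 10.2% in ApoE-/- replicate 1 (144 of 1407 counts, exact interval 8.70% to 11.9%) and 18.3% in replicate 4 (13 of 71, interval 10.1% to 29.3%). The share in ApoE-/- replicate 1 was under all 4 WT shares, and its interval overlapped only that of WT replicate 2 (10.5% to 13.2%). In replicates 2 and 3 there were 0 Myl7 counts among 37 and 27, with exact upper limits of 9.49% and 12.8%, so that the share of WT replicate 2 lay within the limit of replicate 3. Per length of merged exons, Myl7 was 60.4% to 77.9% of the pair in WT mice, 56.5% in ApoE-/- replicate 1 and 71.9% in replicate 4.

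**Figure D3:**
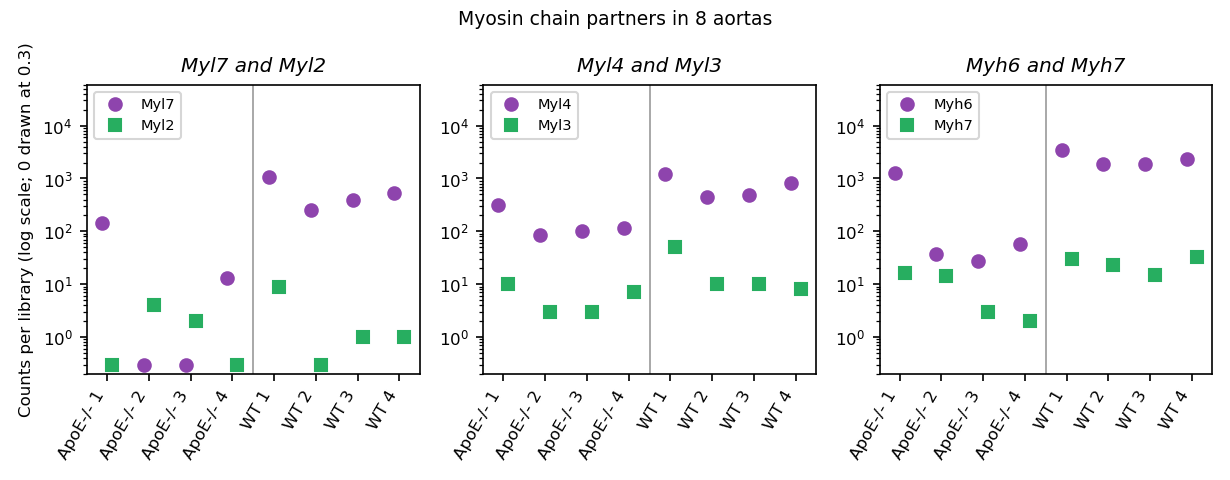
Counts per library (log axis, 0 drawn at 0.3) of 3 pairs of myosin chains in the 8 aortas, with Myl7, Myl4 and Myh6 as circles and their partners Myl2, Myl3 and Myh7 as squares, ApoE-/- left of the line and WT right. The circles lie above the squares in every library except ApoE-/- replicates 2 and 3 of the Myl7 panel, where Myl7 has 0 counts and Myl2 4 and 2.

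Other genes that tell the chambers apart were mostly too low or too widely used to add to this. Among atrial genes, Bmp10, a growth factor of atrial trabeculae, had at most 0.0437 CPM in any library, too low to test. Kcnj5, a subunit of the atrial potassium channel opened by acetylcholine, was at 0 to 0.203 CPM and 0.655 to 1.42 CPM, respectively (log2 fold change −3.50, adjusted p = 0.0624, edgeR). Its partner subunit Kcnj3 overlapped between the genotypes because ApoE-/- replicate 1 was at 16.3 CPM, against 0.0437 to 1.44 CPM in the other ApoE-/- mice and 4.60 to 6.28 CPM in WT mice, and without that library its log2 fold change went from −0.18 to −3.23 (adjusted p = 0.0787), and that of Kcnj5 to −4.37 (adjusted p = 0.0131). Of the 9 atrial genes tested outside the 10 cardiac genes, edgeR called 0 and DESeq2 called Kcnj5 lower and Dkk3 higher (1.75% and 3.23% of all genes with an adjusted p were called lower and higher), and 3 had an unadjusted p under 0.05 by edgeR (11.4% of all tested genes did). Dkk3 (0.85), Pam (0.53) and Nr2f2 (−0.49), at 86.9 CPM or more in every library, are also made by cells other than cardiomyocytes. Of these, Dkk3 was higher and Nr2f2 lower in ApoE-/- mice without overlap, and Pam overlapped. Nr2f2 was at 86.9 to 121 CPM in ApoE-/- mice and 126 to 165 CPM in WT mice. Nr2f1 (−0.53), Kcna5 (−0.23), Stard10 (−0.13) and Dhrs9 (−1.26) had overlapping genotypes.

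Among ventricular genes, Irx4, a transcription factor confined to ventricular muscle, had 0 counts in all 8 libraries. Lrrc10 was at 0 to 0.0867 CPM in ApoE-/- mice and 0.281 to 0.498 CPM in WT mice, and Myl3 at 0.131 to 0.406 CPM and 0.383 to 2.29 CPM. Myh7 was at 0.649, 0.612, 0.131 and 0.0867 CPM in ApoE-/- replicates 1 to 4 and 0.830 to 1.58 CPM in WT mice (log2 fold change −1.70, adjusted p = 0.290). Pln, the phospholamban gene, which smooth muscle also expresses, was at 19.98 to 25.3 CPM and 34.2 to 49.4 CPM (log2 fold change −0.91, adjusted p = 0.0526). Of the 5 tested ventricular genes edgeR called 0, with 2 lower at an unadjusted p under 0.05 (4.17% of all tested genes), and DESeq2 called Pln lower (1.75% of all genes with an adjusted p). Hey2 (−0.22), Mpped2 (0.19) and Kcnip2 (−0.33) had overlapping genotypes.

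Genes of cardiac muscle beyond the 10 were taken from 8 lists that hold 112 such genes, of which 104 were tested. By edgeR 2 of the 104 fell (0.0929% of all tested genes did) and 0 rose, with 29 lower (4.17% of all tested genes) and 2 higher at an unadjusted p under 0.05. In either direction, 11.4% of all tested genes passed that unadjusted threshold. DESeq2 called 24 lower (1.75% of all genes with an adjusted p) and 1 higher, Dkk3 (3.23%). In 27 of the 104 all ApoE-/- values lay below all WT values (3.3% of all tested genes). The median log2 fold change was −0.25 over the 104 genes and 0.05 over all tested genes. Without ApoE-/- replicate 1, edgeR called 27 of 105 lower (1.16% of all tested genes) and 1 higher, Dkk3, and leaving out any other library brought the count of calls to 0. The 27 held, among others, Kcnj5, Pln, Ttn, Myom2, Casq2, Trdn, Tbx5, Smyd1 and Mb, none of which edgeR called with all 8 libraries. The lists were drawn up with earlier results of these libraries known.

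The pair that fell by edgeR both act on natriuretic peptides. Corin, the protease that cuts pro-atrial natriuretic peptide into its active form, was at 2.80, 3.41, 2.96 and 3.08 CPM in ApoE-/- aortas and 7.48, 5.85, 7.75 and 6.46 CPM in WT aortas (log2 fold change −1.17, SE 0.16, adjusted p = 0.0380). Npr3, the receptor that clears natriuretic peptides, was at 33.1, 40.1, 45.5 and 39.8 CPM and 99.8, 88.0, 63.6 and 89.7 CPM, respectively (−1.11, SE 0.16, adjusted p = 0.0396). In both, ApoE-/- replicate 1 was the lowest of its genotype, unlike in the 9 tested cardiac genes. By limma-voom, Corin and Myom2 were called and Npr3 was not. Both edgeR calls were lost when any 1 library other than ApoE-/- replicate 1 was left out. Nppb, the B-type peptide gene, was at or under 0.324 CPM in every library, and Npr1, the signalling receptor, overlapped between the genotypes (134 to 346 CPM and 206 to 295 CPM). Nppa made up 97.6% to 99.4% of the Nppa and Nppb counts in WT mice and 90.0% to 100% in ApoE-/- mice, the latter from 10 to 87 counts. Of the 2 stress genes left in this list, Ankrd1 was at 9.73 to 16.2 CPM in ApoE-/- mice and 16.4 to 30.7 CPM in WT mice (adjusted p = 0.180), and Acta1, skeletal alpha-actin, overlapped (2.97 to 7.44 CPM and 3.21 to 11.7 CPM).

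Among 27 tested sarcomere and Z-disc genes, edgeR called 0 (11 lower at an unadjusted p under 0.05, against 4.17% of all tested genes) and DESeq2 called 10 lower (1.75% of all genes with an adjusted p), with a median log2 fold change of −0.61. Ttn, the giant spring of the sarcomere, was at 190, 35.3, 76.9 and 24.9 CPM in ApoE-/- mice and 340 to 386 CPM in WT mice (log2 fold change −2.14, adjusted p = 0.171). Myom2 (−3.05), Csrp3 (−3.30), Mybphl (−3.01), Tnnc1 (−2.70), Smpx (−2.68), Xirp2 (−2.64) and Lmod2 (−2.32), which serve striated muscle and are examples named after their values were seen, had log2 fold changes within the range of the 9 tested members. Other striated muscle genes of the list had smaller values or the opposite sign with overlapping genotypes: Actn2 −0.76, Tcap −0.61, Synpo2l −0.36 and Trim55 0.91. The sign of Trim55 rested on ApoE-/- replicate 1 (4.3 CPM), since the other ApoE-/- mice (0 to 0.0435 CPM) lay below all WT mice (0.166 to 0.909 CPM) and without it the value was −4.09 (adjusted p = 0.0405, edgeR). Without that library edgeR called 10 of the 27 lower, with a median of −0.55, and Ttn (−2.97), Myom2 (−3.91), Csrp3 (−4.93), Mybphl (−5.41), Tnnc1 (−3.90), Smpx (−3.74) and Xirp2 (−3.70) were further below 0. Apart from Ttn, the genes of this list with the highest levels, which smooth muscle uses too, had values nearer 0: Tpm1 −0.24, Myom1 0.02 and Des −0.40. Xirp1 and Ldb3 had 0.00 each.

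Of 24 calcium handling and excitation genes, edgeR called 1, Corin (0.0929% of all tested genes were called lower), and DESeq2 4 lower (1.75%), with a median of −0.05. At an unadjusted p under 0.05, 4 were lower (4.17% of all tested genes) and 1 higher. Casq2, the cardiac calcium store protein, was at 5.46 to 10.6 CPM in ApoE-/- mice and 16.9 to 25.4 CPM in WT mice (−1.34, adjusted p = 0.0591), and Trdn, which anchors it, had −2.26 (adjusted p = 0.0660). The most abundant genes of this list, Atp2a2 (−0.12), Ank2 (0.66), Asph (0.36) and Ryr2 (−0.02), overlapped between the genotypes, and Ank2 was at 1269 CPM in ApoE-/- replicate 1 and had −0.22 without it. Without that library edgeR called 4 of the 24 lower, with a median of −0.15. Of 16 muscle metabolism genes edgeR called 0 (7 lower unadjusted, against the same 4.17%) and DESeq2 6 lower (against 1.75%), with a median of −0.72. Without ApoE-/- replicate 1, edgeR called 6 of the 16 lower, with a median of −0.89. Myoglobin (Mb) was at 9.09, 0.699, 1.00 and 1.21 CPM in ApoE-/- aortas and 45.8, 14.7, 18.4 and 28.4 CPM in WT aortas (−3.15, adjusted p = 0.172), and the muscle forms Ckmt2 (−2.83), Cox6a2 (−3.01) and Art1 (−3.54) were near it. Without ApoE-/- replicate 1 these 4 had −4.78, −4.27, −4.14 and −5.35. Pdk4 (−0.64), Cox8b (−0.05), Art3 (−0.48) and Hspb7 (−0.04) were the most abundant of the list, and Cox8b is also a marker of brown fat. Of these only Art3 did not overlap between the genotypes (89.5 to 116 CPM in ApoE-/- mice and 134 to 154 CPM in WT mice). DESeq2 called it lower, and edgeR did so without ApoE-/- replicate 1.

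Of 13 tested cardiac transcription regulators edgeR called 0 (3 lower unadjusted, against 4.17% of all tested genes) and DESeq2 2 lower (1.75% of all genes with an adjusted p), Tbx5 and Smyd1, with a median of 0.02. Tbx5, a T-box factor of the atria and limbs, was at 0.830 to 3.81 CPM in ApoE-/- mice and 4.77 to 8.07 CPM in WT mice (−1.43, adjusted p = 0.215), and Smyd1, a methyltransferase needed for sarcomere assembly, had −1.67 (adjusted p = 0.127). Nkx2-5, the core factor of cardiomyocytes, had at most 0.166 CPM in any library, so that it was near the limit of detection in both genotypes. Mef2a (0.05), Mef2c (−0.06), Myocd (0.00) and Gata6 (0.02), the most abundant of the list, are smooth muscle regulators as well. Of 9 conduction system genes edgeR and DESeq2 called 0, none at an unadjusted p under 0.05, with a median of 0.13. Gjc1 (−0.11), Tbx3 (−0.54), Isl1 (1.16) and Cacna1g (0.13) were the most abundant. Without ApoE-/- replicate 1 the median was −1.38, the genes edgeR called lower included Tbx3 (−1.38, 10.5 to 18.7 CPM against 30.4 to 43.2 CPM in WT mice), and Isl1 had −0.43. For the 13 regulators, the count without it was 3 lower, with a median of 0.15.

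**Figure D4:**
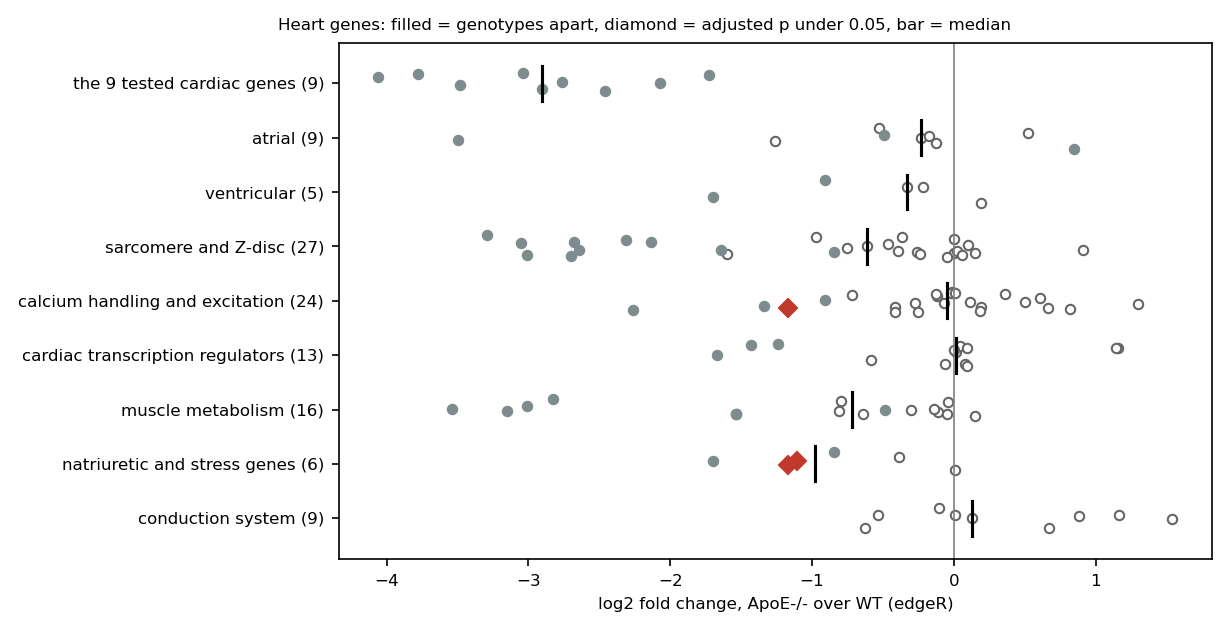
Log2 fold change of ApoE-/- over WT (edgeR) of each tested gene, 1 point per gene, in the 9 tested cardiac genes and in 8 lists of other heart genes, filled where the genotypes do not overlap and red diamonds where the adjusted p was under 0.05 (Corin, in both lists that hold it, and Npr3). The cardiac genes lie between −4.06 and −1.73 with a median of −2.91, while the medians of the other lists run from −0.98 to 0.13.

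The 9 genes that passed the filter shared one profile over the libraries. The mean of their centred log2 CPM was 0.27, −2.58, −2.64 and −2.04 in ApoE-/- replicates 1 to 4 and 2.63, 1.13, 1.59 and 1.64 in WT replicates 1 to 4. The correlation of each gene with this mean, which contains it, was lowest for Actc1 (0.860), Nppa (0.903) and Tnnt2 (0.924) and highest for Mybpc3 (0.993). Outside the 10 genes, 111 of 15062 tested gene symbols, each counted once, had a Pearson r over 0.9 with it. The 10 closest were Trim54 (0.995), Mybphl (0.995), Mb (0.995), Smyd1 (0.990), Hacl1 (0.989), Myom2 (0.987), Smpx (0.986), Palb2 (0.981), Ptp4a1 (0.980) and Mylk3 (0.979). Of these, Trim54, Mybphl, Mb, Smyd1, Myom2, Smpx and Mylk3 are known from striated muscle. These are correlations over 8 libraries that share the difference between the genotypes and the position of ApoE-/- replicate 1, and they carry no test.

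Hacl1, Palb2 and Ptp4a1 had that profile on a much smaller scale. Hacl1, a peroxisomal lyase, was at 2.87 to 3.65 CPM in ApoE-/- mice and 3.79 to 4.54 CPM in WT mice. Palb2, a DNA repair partner, was at 2.86 to 3.77 CPM and 4.26 to 4.87 CPM, and Ptp4a1, a phosphatase, at 10.6 to 19.4 CPM and 24.6 to 33.6 CPM. Their log2 fold changes were −0.41, −0.57 and −1.03, against −3.34 for Trim54, which had counts in 1 ApoE-/- library only, replicate 1 (0.284 CPM), and 0.561 to 1.28 CPM in WT mice.

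The promoters of genes with so similar a profile are shown for 4 members, 1 of each role: the heavy chain, the atrial light chain, the hormone and the actin. Each is the RefSeq window on GRCm38.p6 from 250 bases before to 50 bases after an annotated start, written 5′ to 3′ on the gene's strand, and capitals mark matches on either strand to 6 motifs. These were the GATA motif AGATAA, the T-box motif GGTGTG, the NKX motif AAGTGG, the TATA motif TATAAA, and the MEF2 and CArG motifs.
Myh6, chr14:54966558-54966857, minus strand: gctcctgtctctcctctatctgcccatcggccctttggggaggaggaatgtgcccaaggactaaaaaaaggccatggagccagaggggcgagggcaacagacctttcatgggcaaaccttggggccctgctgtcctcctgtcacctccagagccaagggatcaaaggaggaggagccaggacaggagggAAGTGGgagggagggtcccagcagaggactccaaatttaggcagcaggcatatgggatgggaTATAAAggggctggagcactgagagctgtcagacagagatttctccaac
Myl7, chr11:5898733-5899032, minus strand: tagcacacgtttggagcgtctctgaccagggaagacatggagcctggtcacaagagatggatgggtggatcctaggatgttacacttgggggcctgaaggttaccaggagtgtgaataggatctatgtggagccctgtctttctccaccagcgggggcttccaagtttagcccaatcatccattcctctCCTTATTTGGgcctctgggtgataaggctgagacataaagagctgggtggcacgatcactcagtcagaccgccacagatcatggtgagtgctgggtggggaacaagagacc
Nppa, chr4:148000472-148000771, plus strand: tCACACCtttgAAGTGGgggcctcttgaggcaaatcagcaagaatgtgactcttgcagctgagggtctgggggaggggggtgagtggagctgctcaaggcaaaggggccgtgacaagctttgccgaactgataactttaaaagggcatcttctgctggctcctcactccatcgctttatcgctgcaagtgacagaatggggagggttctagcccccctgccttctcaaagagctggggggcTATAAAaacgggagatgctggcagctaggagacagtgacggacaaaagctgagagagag
Actc1, chr2:114052826-114053125, minus strand: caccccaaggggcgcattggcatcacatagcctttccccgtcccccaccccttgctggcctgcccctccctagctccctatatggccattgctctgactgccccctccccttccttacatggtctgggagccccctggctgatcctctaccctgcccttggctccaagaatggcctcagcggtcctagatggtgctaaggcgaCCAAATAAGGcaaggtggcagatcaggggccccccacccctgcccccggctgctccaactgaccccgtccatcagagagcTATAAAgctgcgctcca
Of the 10 genes, 9 had an entry (11 windows in all), and Sln had none. A CArG match, a sequence bound by serum response factor, was found in Actc1 and Myl7 and in 1.63% of all 32851 promoters. The NKX match was found in Mybpc3, Nppa, Myl4 and Myh6 (16.9% of all promoters), the T-box match in Mybpc3, Nppa and Tnni3 (19%), the TATA match in Actc1, Nppa, Myl2 and Myh6 (13.6%), the GATA match in Tnnt2 and Myl2 (11.2%) and the MEF2 match in Mybpc3 (0.557%). No motif was shared by all 9 genes. The 2 Myl2 windows begin at chr5:122092474 and chr5:122092939, upstream of the Myl2 start given above (chr5:122100951). Its GATA match was in 1 of them and its TATA match in the other. The GATA match of Tnnt2 was in 1 of its 2 windows. A match describes the letters of the window and is neither a shown binding site nor a cause, and a window without one says nothing about the factor.

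Marker lists of other tissues were read beside the summed level of the 10 genes. Skeletal muscle, 20 genes, overlapped between the genotypes (46.8 to 83.6 CPM in ApoE-/- mice and 54.6 to 74.0 CPM in WT mice), edgeR and DESeq2 called 0 of its 16 tested genes (3 at an unadjusted p under 0.05, against 11.4% of all tested genes), and Myod1, its defining factor, had 0 counts in all 8 libraries. For mesothelium, the lining of the pleura and pericardium, the 9 markers summed to 33.7, 19.9, 22.2 and 26.3 CPM in ApoE-/- replicates 1 to 4 and 41.6, 49.9, 34.4 and 78.7 CPM in WT replicates 1 to 4. The genotypes did not overlap, but the highest WT library was replicate 4 and not replicate 1 as in the cardiac genes, with 5 of 6 tested markers below 0 in log2 fold change (42% of all tested genes were), 1 of 6 without overlap (3.3%), 0 called by edgeR (2 lower unadjusted, against 4.17% of all tested genes) and 1 called lower by DESeq2 (1.75%). Without ApoE-/- replicate 1, edgeR called 1 of the 6 mesothelial and 4 of the 10 endothelial markers lower (1.16% of all tested genes). Endothelium, 10 markers, summed to 1890 to 2725 CPM and 2681 to 3181 CPM, with all 10 below 0 (42% of all tested genes), 6 without overlap (3.3%), 0 called by edgeR (7 lower unadjusted, against 4.17%) and 6 called lower by DESeq2 (1.75%). The part of these tissues in the difference of the cardiac genes was not tested.

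The other lists overlapped. White adipocyte markers summed to 5070 to 16163 CPM in ApoE-/- mice and 9201 to 16488 CPM in WT mice, brown adipocyte markers to 649 to 2110 CPM and 1181 to 4082 CPM, and lung epithelium markers to 4.2 to 7.30 CPM and 5.45 to 9.14 CPM. Contractile smooth muscle markers summed to 6430 to 27866 CPM and 14568 to 27182 CPM, and the lowest value was that of ApoE-/- replicate 1. That library, the highest of its genotype in the cardiac genes, also had 5768 CPM of the 8 sympathetic neuron markers, against 29.5 to 409 CPM in the other ApoE-/- mice and 246 to 945 CPM in WT mice. Hand2 (101 CPM against 1.27 to 7.31), Tbx20 (121 against 3.12 to 23.5) and Isl1 (55.4 against 3.77 to 9.84) were high in it as well, of which Hand2 and Isl1 are known factors of both the heart and sympathetic neurons. Whether its cardiac and neuronal transcripts share a source was not tested.

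**Figure D5:**
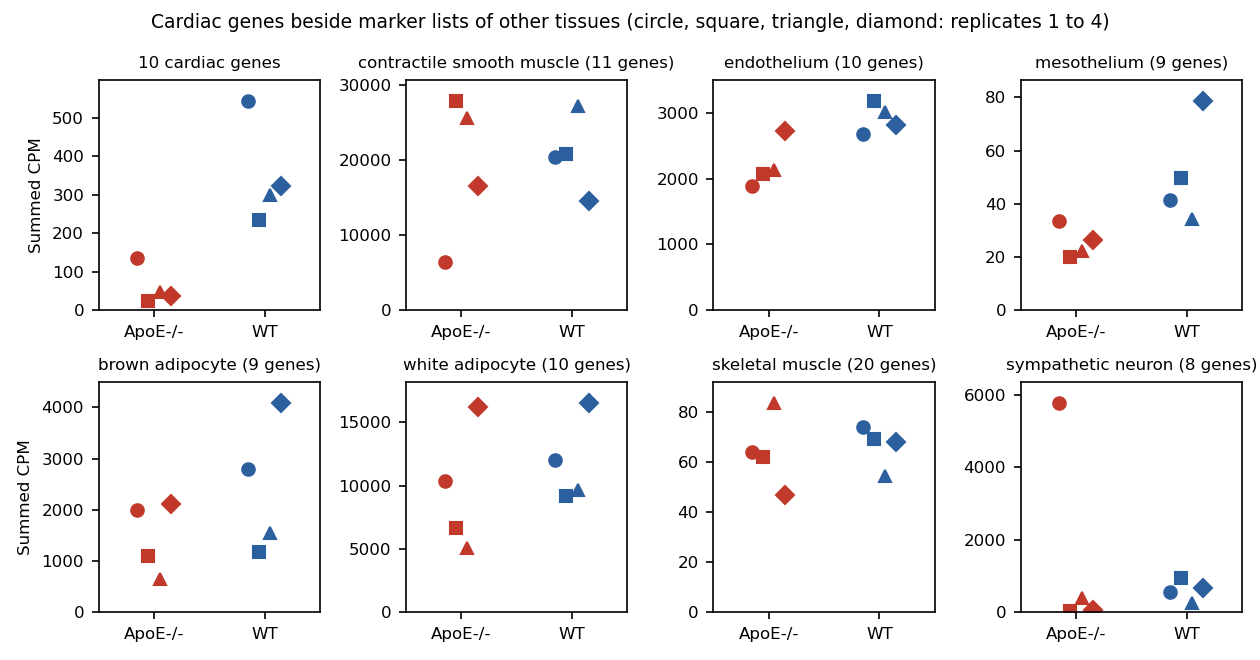
Summed CPM of the 10 cardiac genes and of 7 marker lists of other tissues in each aorta, with ApoE-/- in red, WT in blue, marker shapes for the replicates and axes from 0. The genotypes do not overlap for the cardiac genes (24.3 to 135 CPM and 233 to 544 CPM) and mesothelium, they overlap for the other lists, and ApoE-/- replicate 1 stands alone in the sympathetic neuron list at 5768 CPM.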

How the data were processed

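Aortas of 4 ApoE-/- and 4 WT mice were each sequenced as 1 library. Per the study's methods, libraries were made from ribodepleted total RNA with a kit that keeps the strand. The authors deposited raw read pair counts per gene, 1 table per mouse. Their processing notes name TopHat2 and HTSeq and the builds GRCm38 and mm10, whose versions are not given in the sources used here. In the deposited counts, 64.4% to 67.7% of the pairs of an ApoE-/- library and 69.8% to 72.1% of a WT library were assigned to no gene, and these rows were left out of library sizes and tests. Gene positions and merged exon lengths came from GENCODE M21 (GRCm38), which held 21817 of the 21859 identifiers, 626 of them under another version suffix.

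Groups and replicate numbers came from the labels. The genotypes were compared with genotype as the only factor by the quasi-likelihood test of edgeR 4.0.16 in R 4.3.3, with TMM factors, the filterByExpr low-count filter and Benjamini-Hochberg adjustment over all genes tested (threshold 0.05). DESeq2 1.42.0, the tool the study names, and voom of limma 3.58.1 were alternatives, as were other scalings, other filters, a replicate block and leaving out each library. Summed levels and partner shares were computed with Python 3.11.15, with exact Clopper-Pearson intervals. Centred log2 CPM used a prior count of 2. The edgeR and DESeq2 fits were first tested on simulated data with known fold changes. The members and all lists were chosen with earlier results of these data known. Genes named beyond the 10 were those past the threshold, the genes of the chamber and natriuretic lists, up to 4 of each heart list with the highest mean CPM, and the 10 closest in profile. Some genes of the lists are not reported here. Others were named after their values were seen, as examples. Each library is 1 mouse, so p-values measure the spread between mice.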

Additional observations from a re-analysis of the deposited data

Results flagged for a closer look

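A library was picked out where its gap to the nearest other library, divided by the range of its group of 4, lay beyond Dixon's 95% critical value. Chance does so in about 1 of 20 groups, or 2.7 of the 54 groups examined here, and 9 were found, 6 of them ApoE-/- replicate 1. The groups are not independent, since the cardiac genes share one profile, so the same odd library is counted repeatedly. Among the cardiac genes, that library was far above the other ApoE-/- mice in Myh6 (51.2 CPM against 1.18 to 2.52, ratio 0.973), Tnni3 (7.10 against 1.39 to 1.61, ratio 0.961), Sln (2.72 against 0 to 0.217, ratio 0.920), Myl7 (5.84 against 0 to 0.564, ratio 0.903) and Myl4 (12.9 against 3.71 to 4.94, ratio 0.866). Its summed CPM of the sympathetic neuron markers was 5768 against 29.5 to 409 (ratio 0.934). In WT mice, replicate 1 was far above the others in Actc1 (124 CPM against 64.7 to 72.8, ratio 0.864) and in Myl2 (0.413 against 0 to 0.0554, ratio 0.866), the latter from 9 counts. WT replicate 3 was far above the others in the summed lung epithelium markers (9.14 CPM against 5.45 to 5.57, ratio 0.969), a list in which 3 of 8 genes had no more than 3 counts in any library.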

How the results depend on the processing

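By edgeR 70 of 15077 genes were called between the genotypes and 2 of the 104 heart genes outside the 10 members. DESeq2 called 725 and 25, and limma-voom 29 and 2 (Corin and Myom2, not Npr3). Other scalings, filters and the fit with no robust estimation gave 63 to 105 and 2 to 3. Leaving out 1 library gave 0 to 593 and 0 to 28 by edgeR, the highest in both without ApoE-/- replicate 1 and otherwise 0 to 17 and 0. Leaving out each library in DESeq2 was added after seeing the data. ApoE-/- replicates 1 to 4 left out gave 1562, 711, 530 and 706 genes and 40, 22, 23 and 22 heart genes, and WT replicates 1 to 4 left out gave 472, 503, 453 and 445 genes and 13, 22, 20 and 17 heart genes. With a replicate block the calls were 2 and 0, but the deviations of libraries with the same replicate number correlated at 0.0593, −0.448, 0.316 and 0.162 for numbers 1 to 4, so the mice share a number only and are not shown to be paired. The log2 fold changes of the 9 tested members were below 0 in all 144 values computed under the alternatives, and 8 of these moved by more than 1 SD, the spread of the gene's log2 CPM between libraries pooled over the genotypes (not the SE of the fold change). These were Myh6 (−4.92 with the replicate block, −6.03 without ApoE-/- replicate 1), Myl7 (−6.85 with limma-voom, −7.12 without that library), Sln (−5.51 and −6.62 in the same settings), and Tnni3 (−3.73) and Mybpc3 (−4.03) without that library. The summed levels and the WT share of Myl7 moved by less than 1 SD. Depth limits Myl7, Sln and Myl2 in ApoE-/- mice and Myl2 in WT mice, where libraries had 3 counts or fewer. The cause of these dependences was not tested.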
